A study of Mus musculus with 6 samples.

Results

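The 33 reactive astrocyte genes described here are the rows of the deposited gene table whose gene name is on a list of genes known to be induced in astrocytes after injury or inflammation. All 33 names matched exactly 1 of 35148 rows. RNA came from the paraventricular nucleus of the hypothalamus (PVH) of Ruvbl2 fl/fl mice, in which loxP sites flank part of the gene of the ATPase RUVBL2. In 3 libraries the PVH had been injected with AAV2-Cre-GFP, an adeno-associated virus that carries Cre recombinase and green fluorescent protein, and in 3 with AAV2-GFP, the same serotype without Cre, 8 weeks before sampling. The floxed genotype, the injection and the GFP cargo are shared by both groups, so each member is compared between 2 injected groups and not with uninjected tissue. The labels give neither the promoter that drives Cre, the cells it reached, nor the age and sex of the mice. They also do not say that each library was a separate animal, so every p-value below reflects only how these 6 libraries vary.

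Astrocytes respond to damage by enlarging and by making more intermediate filament protein, above all glial fibrillary acidic protein, together with secreted protease inhibitors, acute-phase proteins and chemokines. Cytokines of the interleukin-6 family drive much of this response through the shared receptor subunit gp130, encoded by Il6st, and the transcription factor STAT3. Studies of astrocytes purified from mice given lipopolysaccharide (LPS) or an ischaemic stroke gave the usual division into genes induced by either, genes typical of LPS and genes typical of ischaemia. In the hypothalamus, reactive astrocytes are best known from injury, inflammation and high-fat feeding. Many of the members are also made by other cells: Vim and Nes by ependymal cells, tanycytes or vessel cells, Tm4sf1 by endothelium, Lcn2 by neutrophils and kidney, and Srgn by leukocytes.

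Promoter windows were available from RefSeq (GRCm38.p6) for 28 of the 33 genes, each window running from 250 bases before to 50 bases after an annotated start. They were searched on both strands for TTCNNNGAA, the palindromic site of STAT proteins, and for TTGCNNAA, a site of C/EBP proteins such as the member Cebpd; neither pattern contains the other. The STAT letters were present for 6 of the 28 genes (21.4%; Emp1, Gfap, Sbno2, Sphk1, Steap4 and Tgm1) and for 8.78% of 17537 genes of the table with a window. The C/EBP letters were present for 6 of 28 (21.4%; Cp, Lcn2, Ptgs2, Ptx3, Steap4 and Tgm1) and for 11.3% of the 17537. Steap4 and Tgm1 held both. These matches describe letters and not binding. The windows of 4 members are shown, the main astrocyte filament gene and 3 of the members with larger differences below, written 5′ to 3′, with the matched motif in capitals: Gfap (chr11:102897151-102897450, minus strand) and Emp1 (chr6:135362681-135362980, plus strand) for the STAT letters, and Lcn2 (chr2:32387690-32387989, minus strand) and Ptgs2 (chr1:150099781-150100080, plus strand) for the C/EBP letters.
Gfap: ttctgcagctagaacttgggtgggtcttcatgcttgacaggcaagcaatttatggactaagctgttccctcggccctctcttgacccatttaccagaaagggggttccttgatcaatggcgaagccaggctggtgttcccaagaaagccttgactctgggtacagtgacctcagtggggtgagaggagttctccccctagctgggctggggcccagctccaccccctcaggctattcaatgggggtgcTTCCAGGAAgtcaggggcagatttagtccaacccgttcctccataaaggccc
Emp1: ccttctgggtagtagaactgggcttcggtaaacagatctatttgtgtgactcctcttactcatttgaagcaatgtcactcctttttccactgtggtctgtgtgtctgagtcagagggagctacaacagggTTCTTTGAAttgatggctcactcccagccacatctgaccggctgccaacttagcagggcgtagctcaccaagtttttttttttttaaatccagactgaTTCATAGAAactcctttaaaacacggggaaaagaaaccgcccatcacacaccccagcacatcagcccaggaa
Lcn2: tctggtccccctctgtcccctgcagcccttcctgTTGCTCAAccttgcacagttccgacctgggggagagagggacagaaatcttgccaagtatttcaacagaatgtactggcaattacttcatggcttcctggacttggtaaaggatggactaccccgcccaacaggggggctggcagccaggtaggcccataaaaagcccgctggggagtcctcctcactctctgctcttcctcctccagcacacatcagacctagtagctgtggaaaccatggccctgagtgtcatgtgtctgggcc
Ptgs2: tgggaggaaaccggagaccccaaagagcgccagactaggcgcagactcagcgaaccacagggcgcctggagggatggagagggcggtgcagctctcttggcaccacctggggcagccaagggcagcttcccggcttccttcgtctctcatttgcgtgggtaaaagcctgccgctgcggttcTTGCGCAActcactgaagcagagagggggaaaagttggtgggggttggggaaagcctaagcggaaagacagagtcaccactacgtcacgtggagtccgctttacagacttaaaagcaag
The match in Gfap spans the annotated start, from 2 bases before it. Emp1 holds 2 matches, which begin 120 and 22 bases before its start. The windows of Vim and Tm4sf1, the members with the smallest p-values, held neither motif.

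The libraries carried 41890769, 45119184 and 54702785 counts with AAV2-Cre-GFP and 43738694, 42003794 and 49414012 counts with AAV2-GFP. Ruvbl2 itself had 9.53, 9.10 and 9.51 FPKM (fragments scaled by gene length and library total) with AAV2-Cre-GFP and 9.90, 7.36 and 8.72 FPKM with AAV2-GFP, so the targeted gene was not lower where Cre was injected (edgeR adjusted p = 0.773); the value covers the whole gene and does not separate deleted exons. The libraries are therefore called Cre-labelled and GFP-labelled below. Some libraries also held transcripts known from other organs: 10 kidney genes summed to 527 and 577 CPM (counts scaled to the library total after TMM normalization) in Cre-labelled libraries 2 and 3 and to 33.4 to 57.3 CPM in the other 4, 8 skeletal muscle genes reached 220 CPM in Cre-labelled library 3, with no other above 24.1 CPM, and 8 testis genes reached 477 CPM in GFP-labelled library 1, with no other above 2.09 CPM. The gene model CT010467 had 17144, 13457 and 7202 CPM in Cre-labelled libraries 1 to 3, against 2246, 2242 and 2120 CPM in GFP-labelled ones. Lars2 had 402, 289 and 169 CPM against 89.1, 95.6 and 84.3 CPM. Rn7sk and mt-Rnr2 were likewise higher in every Cre-labelled than in every GFP-labelled library. The make-up of the RNA thus differed between the groups, and its part in the member values was not tested. Astrocytes were well represented: the identity markers Aldh1l1, Aqp4, Slc1a3 and Glul had at least 14.2, 19.1, 72.7 and 270.0 FPKM in every library.

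Of the 33 genes, 32 passed the filter on low counts, and by edgeR's quasi-likelihood test 0 of these 32 were called at the adjusted threshold of 0.05, where 2 of 20865 genes (0.00959%) were. As a description, 27 of the 32 were higher and 5 lower in the Cre-labelled libraries, with a median log2 difference of 0.23, where 49.0% of all genes tested were higher and their median was -0.00577. At an unadjusted p under 0.05, 4 members were higher (Tm4sf1, Vim, Emp1 and Clcf1) and 1 was lower (Amigo2), against 8.11% and 9.11% of all genes tested. In DESeq2, 2 of the 23 members with an adjusted p passed, Tm4sf1 and Vim, both higher, against 9.06% of 16304 genes in either direction and 3.66% as higher; limma on log2(FPKM + 0.5) called 0 of 29 members and 3 of 23367 genes (0.0128%). In FPKM the lowest Cre-labelled library exceeded the highest GFP-labelled one for 11 members, against 14.1% of all genes tested. In the lower direction 2 members were apart, against 8.80%, and in the other 20 the groups overlapped. FPKM carries no TMM factor, and these factors were 1.003 to 1.029 in the Cre-labelled and 0.9777 to 0.9936 in the GFP-labelled libraries. Narrow gaps in FPKM therefore depend on this scale, as do the shares over all genes. Whether the gaps hold in CPM was not tested. With Cre-labelled libraries 2 and 3 left out, 22 of 33 members were higher, with a median of 0.20 (edgeR, 1 library against 3), and without GFP-labelled library 1 as well 22 of 33, with a median of 0.21.

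**Figure D1:**
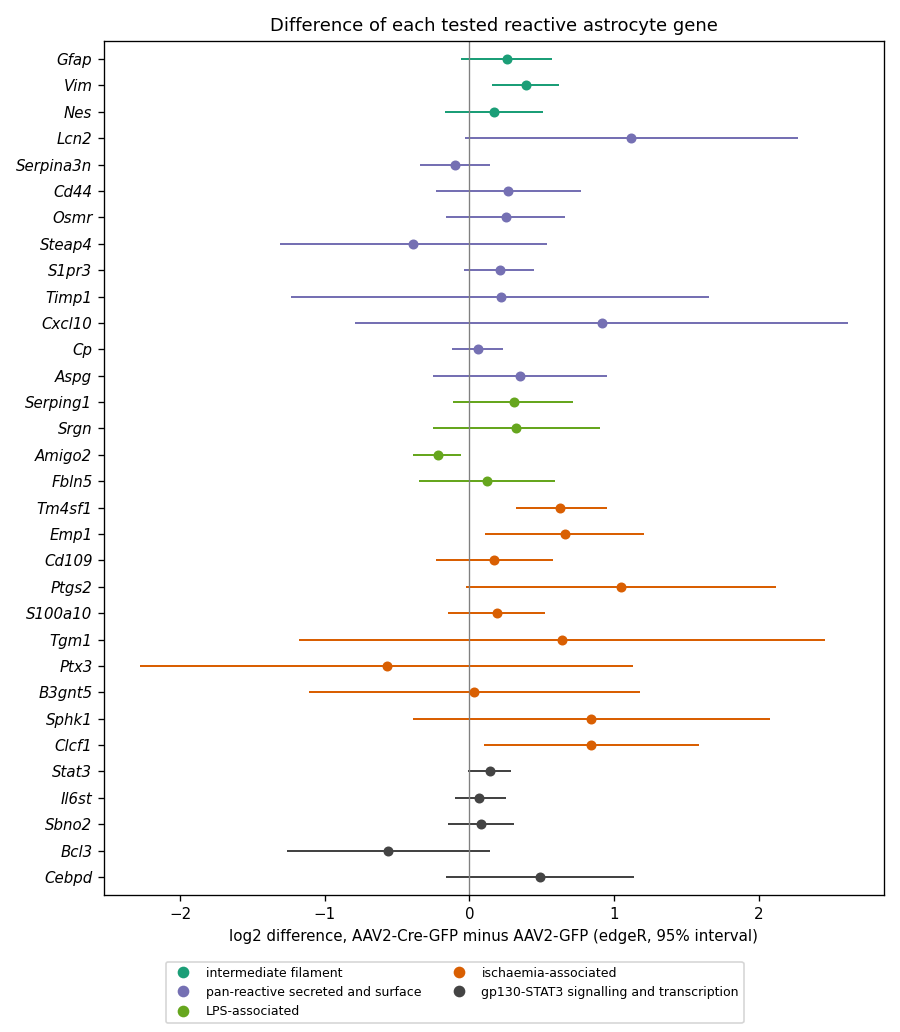
Log2 difference of each of the 32 tested genes, AAV2-Cre-GFP minus AAV2-GFP (x axis), with its 95% interval from edgeR's quasi-likelihood fit (n = 3 libraries per group), ordered and coloured by role (y axis). Of the 32 points 27 lie right of 0, and the intervals of Vim, Tm4sf1, Emp1 and Clcf1 lie wholly above 0 and that of Amigo2 wholly below it.

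**Figure D2:**
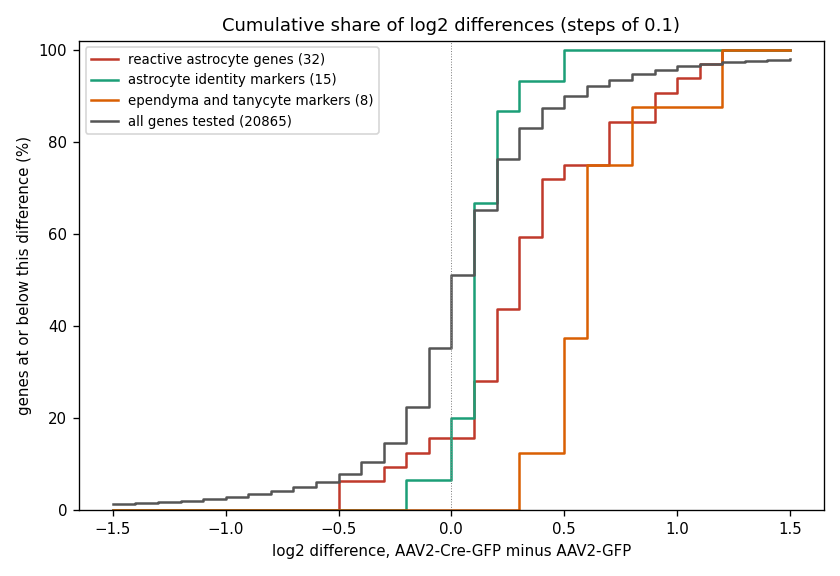
Cumulative share of genes (y axis, %) at or below each log2 difference, AAV2-Cre-GFP minus AAV2-GFP (x axis, steps of 0.1), for the 32 tested reactive astrocyte genes, 15 astrocyte identity markers, 8 ependyma and tanycyte markers and all 20865 genes tested. The curve of the reactive astrocyte genes lies right of that of all genes over most of its range, with medians of 0.23 and -0.00577, and the ependyma and tanycyte curve lies further right, with a median of 0.51.

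The 3 intermediate filament genes were all higher in the Cre-labelled libraries, with a median log2 difference of 0.26, and none passed in edgeR. Gfap (ENSMUSG00000020932; minus strand of chromosome 11, 102887336 to 102897200 as deposited, positions of GRCm38) encodes the main filament protein of astrocytes and had 81.5, 55.7 and 60.7 FPKM in Cre-labelled libraries 1 to 3, against 54.7, 58.9 and 47.6 FPKM in the GFP-labelled ones, from 11451 to 16661 counts each. The groups overlapped, since Cre-labelled library 2 lay below GFP-labelled library 2, and Cre-labelled library 1 stood above all others. The means were 66 ± 13.7 and 53.7 ± 5.68 FPKM (SD, n = 3 each), a log2 difference of 0.26 ± 0.134 (SE; 95% interval -0.06 to 0.57; edgeR adjusted p = 0.381). Fits with Cre-labelled library 1 alone were added after the data were seen and cannot measure the spread within the Cre-labelled group. Without GFP-labelled library 1 as well, the spread came only from GFP-labelled libraries 2 and 3, the most alike pair (chi-square per gene 11.4). Their p-values therefore do not test a difference between the groups. Without Cre-labelled library 1 the Gfap difference was 0.099, so 1 library set most of its size. With Cre-labelled library 1 alone it was 0.56 against all 3 GFP-labelled libraries (edgeR adjusted p = 0.408) and 0.56 against GFP-labelled libraries 2 and 3 (edgeR adjusted p = 0.0042), a fit in which 1059 of 22015 genes (4.81%) passed.

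Vim (ENSMUSG00000026728; plus strand of chromosome 2, 13573927 to 13582826) encodes vimentin, the filament protein that astrocytes share with ependymal and mesenchymal cells. Its level was 12.6, 11.5 and 12.3 FPKM in the Cre-labelled and 7.67, 10 and 9.30 FPKM in the GFP-labelled libraries. The groups did not overlap. The means were 12.1 ± 0.563 and 9.0 ± 1.21 FPKM (SD, n = 3 each), a log2 difference of 0.39 ± 0.10 (SE; 95% interval 0.16 to 0.62; edgeR adjusted p = 0.130, DESeq2 adjusted p = 0.00702). Leaving out single libraries gave 0.28 to 0.47, the extremes coming from GFP-labelled libraries 1 and 2. Nes, which encodes nestin, a filament protein of progenitors, tanycytes and vessels, had 2.56, 2.41 and 3.17 FPKM against 2.08, 2.25 and 2.73 FPKM in the GFP-labelled libraries, and the groups overlapped (log2 0.17 ± 0.147, SE; edgeR adjusted p = 0.610).

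**Figure D3:**
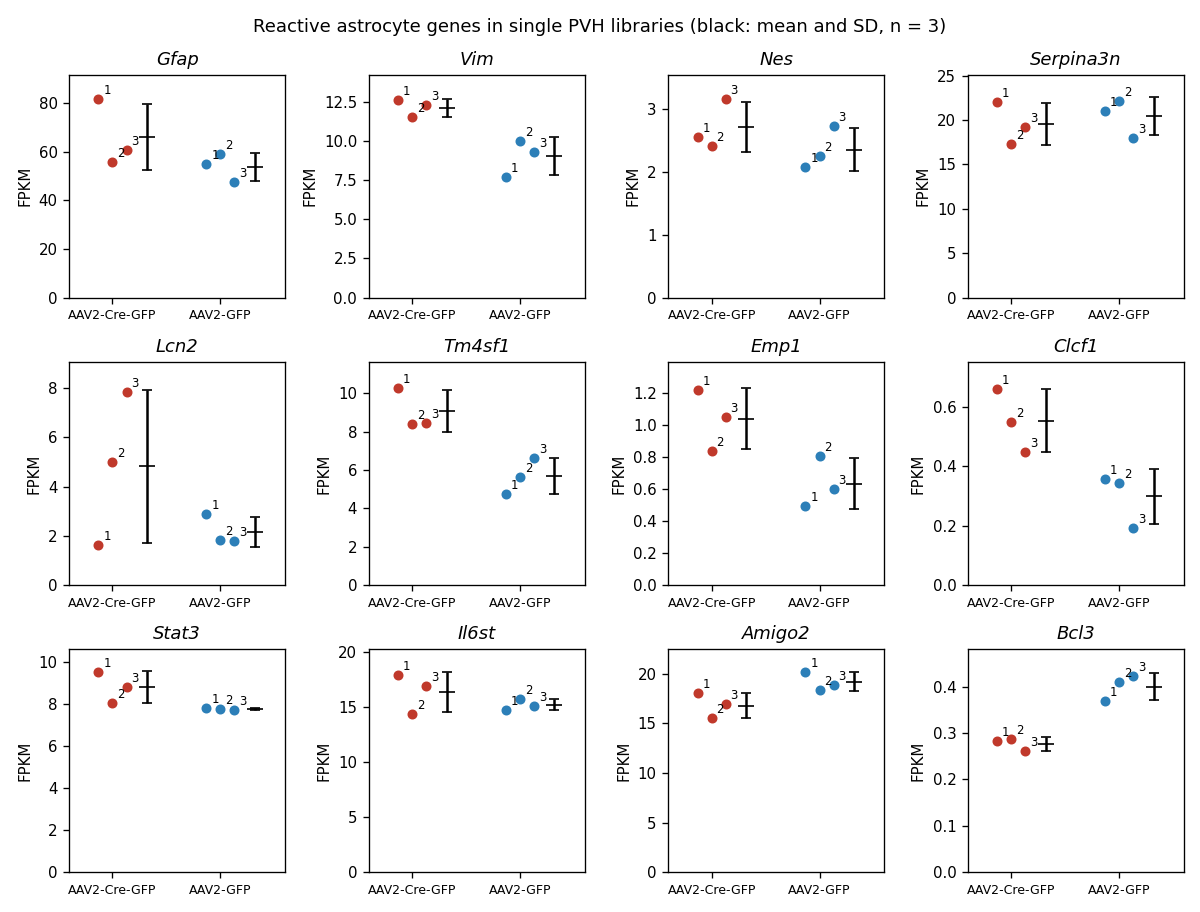
FPKM (y axes, each starting at 0) of 12 members in single libraries of the AAV2-Cre-GFP group (red) and the AAV2-GFP group (blue); numbers give the library, and black bars the mean and SD (n = 3 per group). Vim, Tm4sf1, Emp1, Clcf1 and Stat3 did not overlap between the groups and were higher with AAV2-Cre-GFP, Amigo2 and Bcl3 did not overlap and were lower, and the other 5 overlapped.

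Genes induced by either kind of injury include secreted proteins, receptors and enzymes. Of these 10 members 8 were higher and 2 lower, with a median log2 difference of 0.23, none passing in edgeR (lowest adjusted p = 0.302). Serpina3n, a secreted inhibitor of serine proteases and one of the strongest markers of reactive astrocytes in mice, was the second most abundant member and had 22.0, 17.3 and 19.2 FPKM in the Cre-labelled against 21, 22.1 and 18 FPKM in the GFP-labelled libraries. The groups overlapped, and its log2 difference of -0.10 ± 0.104 (SE; edgeR adjusted p = 0.664) had a 95% interval of -0.34 to 0.14. The value carries a limit from the counting, since 10 other genes of the Serpina3 cluster share between 1.1% and 5.9% of its 31-base words.

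Lcn2 (ENSMUSG00000026822; minus strand of chromosome 2, 32384633 to 32387797) encodes lipocalin 2, a secreted carrier of iron-binding siderophores, and had the largest log2 difference of all members. Its level was 1.63, 5.01 and 7.83 FPKM in Cre-labelled libraries 1 to 3, against 2.87, 1.82 and 1.80 FPKM in GFP-labelled ones. The groups overlapped: Cre-labelled libraries 2 and 3 were high, and Cre-labelled library 1 was the lowest of all 6. The log2 difference was 1.12 ± 0.497 (SE; 95% interval -0.03 to 2.27; edgeR adjusted p = 0.302). Without Cre-labelled libraries 2 and 3 it was -0.45. The same 2 libraries held the kidney transcripts, and they were also highest in S100a8 and S100a9, calcium-binding proteins of neutrophils: S100a9 stood at 45.5, 117 and 154 FPKM in the Cre-labelled and at 54.8, 43.3 and 45.1 FPKM in the GFP-labelled libraries. Over the list of 10 perivascular macrophage and leukocyte markers the summed level was 59.0 to 164 CPM in the Cre-labelled and 57.8 to 73.0 CPM in the GFP-labelled libraries. S100a8 and S100a9 are the most abundant genes of this list, so the sum does not stand for the others. Of the 9 tested 7 were higher and 2 lower, and the groups were apart and higher for 2 (22.2%), against 14.1% of all genes tested. The lower ones were Mrc1 and Cd163 (log2 -0.07 and -0.42), and the T cell marker Cd3e was at or near 0. The part of kidney or neutrophil transcripts in the Lcn2 values was not tested.

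The signalling receptors of this set differed little. Osmr, the oncostatin M receptor that pairs with gp130, had 0.418, 0.381 and 0.409 FPKM against 0.375, 0.319 and 0.293 FPKM in the GFP-labelled libraries, and S1pr3, a receptor of sphingosine 1-phosphate, had 3.91, 3.37 and 3.75 against 3.12, 2.82 and 3.34 FPKM. In both genes the groups did not overlap in FPKM, by narrow margins that depend on this scale. The log2 differences were 0.25 ± 0.179 and 0.21 ± 0.106 (SE, with edgeR adjusted p = 0.518 and 0.365). Cd44, the hyaluronan receptor, overlapped between the groups at 0.882 ± 0.146 and 0.712 ± 0.143 FPKM (SD, n = 3 each; edgeR adjusted p = 0.566).

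Cp, which encodes the copper ferroxidase ceruloplasmin, varied little, at 2.42, 2.48 and 2.44 FPKM in the Cre-labelled and 2.25, 2.27 and 2.36 FPKM in the GFP-labelled libraries. The groups did not overlap in FPKM, by a narrow margin that depends on this scale. The log2 difference was only 0.06 ± 0.074 (SE, 95% interval -0.12 to 0.23, edgeR adjusted p = 0.752). Cp shares 13201 bases of its span with Hps3 on the opposite strand, and the sources do not say whether counting used strand, although the library kit marks it. The same limit holds for S1pr3 (10048 bases with Gm32834, at 1.93 FPKM in the Cre-labelled and 2.00 FPKM in the GFP-labelled libraries). It also holds for Cebpd (1808 bases with Spidr, 0.479 and 0.447 FPKM), Tgm1 (12274 with Gm49067, 0.116 and 0 FPKM) and Bcl3 (2264 with Gm16175, 0.110 and 0.188 FPKM). Aspg, an asparaginase, averaged 1.12 ± 0.223 FPKM in the Cre-labelled and 0.848 ± 0.191 FPKM in the GFP-labelled libraries, and Steap4, a metalloreductase, 0.175 ± 0.055 and 0.226 ± 0.0315 FPKM (SD, n = 3 each), and in both genes the groups overlapped (edgeR adjusted p = 0.531 and 0.669).

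Cxcl10, a chemokine that attracts T cells, and Timp1, an inhibitor of matrix metalloproteases, were too low for a precise difference. Cxcl10 had 45, 56 and 44 counts in the Cre-labelled and 21, 44 and 4 counts in the GFP-labelled libraries, a log2 difference of 0.92 with a 95% interval of -0.79 to 2.62. It was 0.40 without GFP-labelled library 3, the library with 4 counts. Cxcl10 lies wholly inside Art3, on the opposite strand, whose level was 0.733 FPKM in the Cre-labelled and 1.31 FPKM in the GFP-labelled libraries. Timp1 had 33, 14 and 24 counts against 12, 10 and 37 in the GFP-labelled libraries, and its sign turned to -0.20 without Cre-labelled library 1. All of Timp1 lies inside Syn1, the synapsin I gene, on the opposite strand, whose level was 84.8 FPKM in the Cre-labelled and 126 FPKM in the GFP-labelled libraries.

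The 4 members typical of LPS did not share a direction. Serping1, the C1 inhibitor of the complement cascade, had 2.73, 3.03 and 3.07 FPKM in the Cre-labelled and 2.40, 2.67 and 1.89 FPKM in the GFP-labelled libraries, without overlap (log2 0.31 ± 0.180, SE; edgeR adjusted p = 0.434). Amigo2 (ENSMUSG00000048218; minus strand of chromosome 15, 97244125 to 97247287), an adhesion molecule that neurons also make, had 18.1, 15.5 and 17.0 FPKM against 20.2, 18.4 and 18.9 FPKM in the GFP-labelled libraries. Amigo2 was thus lower in every Cre-labelled library, with a log2 difference of -0.22 ± 0.070 (SE; 95% interval -0.39 to -0.06; edgeR adjusted p = 0.176). It was the only member lower at an unadjusted p under 0.05, and beside it the summed level of 12 neuron markers was 4760 to 4989 CPM in the Cre-labelled and 5281 to 5496 CPM in the GFP-labelled libraries. The part of neuronal RNA in the Amigo2 value was not tested, and in bulk RNA fewer cells of a type and less RNA per cell cannot be told apart.

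Srgn, the proteoglycan core serglycin, and Fbln5, the elastic fibre protein fibulin 5, overlapped between the groups. Srgn had 1.74, 3.21 and 2.70 FPKM in the Cre-labelled and 2.14, 1.90 and 1.91 FPKM in the GFP-labelled libraries (edgeR adjusted p = 0.551), and Fbln5 had 2.66, 3.75 and 4.39 FPKM against 2.86, 2.93 and 3.92 FPKM (edgeR adjusted p = 0.813). Both were lowest in Cre-labelled library 1 and, with that library as the only Cre-labelled one, stood at log2 differences of -0.23 and -0.33.

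The 11 members typical of ischaemia include Tm4sf1, Emp1 and Clcf1, 3 of the 4 members that were higher at an unadjusted p under 0.05. Of the 10 that were tested 9 were higher and 1 lower, with a median log2 difference of 0.64, the largest of the 5 role groups; several rest on few counts. Tm4sf1 (ENSMUSG00000027800; minus strand of chromosome 3, 57285611 to 57301936) encodes a small membrane protein with 4 transmembrane segments that endothelial cells make in quantity. It had 10.3, 8.41 and 8.45 FPKM in the Cre-labelled and 4.73, 5.66 and 6.65 FPKM in the GFP-labelled libraries. All Cre-labelled values lay above all GFP-labelled ones. The means were 9.07 ± 1.1 and 5.68 ± 0.959 FPKM (SD, n = 3 each). In edgeR the log2 difference was 0.63 ± 0.135, or 1.55-fold (SE, 95% interval 0.32 to 0.95, edgeR adjusted p = 0.096, DESeq2 adjusted p = 0.000493). With 1 library left out it ran from 0.51 to 0.77. Of 10 endothelial markers 7 were higher and 3 lower, with a median log2 difference of 0.07 and a summed level of 290 to 358 CPM in the Cre-labelled and 258 to 322 CPM in the GFP-labelled libraries. The most abundant of them were Slc2a1, the glucose transporter of brain capillaries, and Ly6c1. These were the only 2 of the 10 in which the groups were apart, both higher, against 14.1% of all genes tested. They were also the only 2 of the 10 that passed in DESeq2, against 3.66% of 16304 genes as higher, so they do not stand for the list. Slc2a1 had a log2 difference of 0.31 ± 0.083 (SE; edgeR adjusted p = 0.136, DESeq2 adjusted p = 0.00856), and Ly6c1 one of 0.56 ± 0.158 (SE; edgeR adjusted p = 0.149, DESeq2 adjusted p = 0.0152). The part of endothelial RNA in the Tm4sf1 values was not tested.

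Emp1, a membrane protein of the claudin superfamily, had 1.22, 0.839 and 1.05 FPKM in the Cre-labelled and 0.495, 0.809 and 0.598 FPKM in the GFP-labelled libraries. The groups were apart, but Cre-labelled library 2 and GFP-labelled library 2 nearly met. The log2 difference was 0.66 ± 0.237 (SE; 95% interval 0.11 to 1.21; edgeR adjusted p = 0.220, DESeq2 adjusted p = 0.0902). Clcf1, a cytokine of the interleukin-6 family that signals through gp130, had 123, 111 and 110 counts against 70, 64 and 43 counts in the GFP-labelled libraries, or 0.554 ± 0.106 and 0.299 ± 0.0918 FPKM (SD, n = 3 each). The groups of Clcf1 did not overlap. In edgeR its log2 difference was 0.84 ± 0.321, or 1.79-fold (SE, edgeR adjusted p = 0.243), and 0.61 without GFP-labelled library 3.

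Ptgs2, the inducible cyclooxygenase that neurons also make, was low throughout. It had 39, 20 and 37 counts in the Cre-labelled and 14, 12 and 17 counts in the GFP-labelled libraries, or 0.127 ± 0.0451 and 0.0587 ± 0.00575 FPKM (SD, n = 3 each). The groups did not overlap, with a log2 difference of 1.05 ± 0.464 (SE; 95% interval -0.02 to 2.12; edgeR adjusted p = 0.300). S100a10, the light chain partner of annexin A2, had 7.31, 9.01 and 9.65 FPKM in the Cre-labelled and 7.45, 7.53 and 7.27 FPKM in the GFP-labelled libraries, so that Cre-labelled libraries 2 and 3 were high and the groups overlapped (log2 0.19 ± 0.144, SE; edgeR adjusted p = 0.551). Cd109, a membrane-anchored co-receptor that binds transforming growth factor beta, had 2.05 ± 0.412 and 1.77 ± 0.297 FPKM (SD, n = 3 each), with overlap (edgeR adjusted p = 0.664).

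Of the remaining members of this set, Sphk1, which makes sphingosine 1-phosphate, had 15, 23 and 37 counts against 14, 7 and 17 in the GFP-labelled libraries (log2 0.84, 95% interval -0.39 to 2.08). Tgm1, a transglutaminase, Ptx3, a long pentraxin, and B3gnt5, a glycosyltransferase, had between 4 and 69 counts in any library, overlapped between the groups, and had log2 differences of 0.64 (95% interval -1.18 to 2.46), -0.57 (-2.28 to 1.13) and 0.03 (-1.11 to 1.18). Ptx3 lies wholly inside Veph1, on the opposite strand, whose level was 0.105 FPKM in the Cre-labelled and 0.0233 FPKM in the GFP-labelled libraries. Slc10a6, a transporter of steroid sulfates, had 0, 16 and 4 counts in the Cre-labelled and 0, 6 and 16 counts in the GFP-labelled libraries and was not tested. The 95% intervals of Sphk1, Tgm1, Ptx3 and B3gnt5 each held both 0 and the log2 differences of Gfap and Vim (0.26 and 0.39). A difference of that size can therefore not be told from none in these genes.

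Of the 5 members that belong to gp130 and STAT3 signalling and its transcription factors 4 were higher and 1 lower, with a median log2 difference of 0.08. Il6st, the gp130 subunit, had 17.9, 14.4 and 16.9 FPKM in the Cre-labelled and 14.7, 15.7 and 15.1 FPKM in the GFP-labelled libraries, and the groups overlapped (log2 0.07 ± 0.076, SE; 95% interval -0.10 to 0.25; edgeR adjusted p = 0.672). Stat3 (ENSMUSG00000004040; minus strand of chromosome 11, 100885098 to 100939540) had 9.55, 8.06 and 8.84 FPKM against 7.84, 7.77 and 7.75 FPKM in the GFP-labelled libraries. The GFP-labelled values of Stat3 were close together (SD 0.0515 FPKM, n = 3) and all Cre-labelled ones lay above them, with a log2 difference of 0.14 ± 0.063 (SE; 95% interval -0.01 to 0.29; edgeR adjusted p = 0.308). Cebpd, a C/EBP transcription factor of the acute-phase response, had 0.637, 0.628 and 0.730 FPKM against 0.334, 0.608 and 0.436 FPKM, without overlap (log2 0.49 ± 0.281, SE; edgeR adjusted p = 0.420).

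Bcl3, an atypical inhibitor-of-kappaB protein that binds NF-kappaB subunits in the nucleus, was on the other side. It had 0.282, 0.287 and 0.260 FPKM in the Cre-labelled and 0.368, 0.410 and 0.422 FPKM in the GFP-labelled libraries, from 35 to 62 counts. All Cre-labelled libraries were lower, with a log2 difference of -0.56 ± 0.304 (SE; 95% interval -1.26 to 0.14; edgeR adjusted p = 0.396). Sbno2, a co-regulator induced through STAT3, had 2.12 ± 0.159 and 1.96 ± 0.187 FPKM (SD, n = 3 each), with overlap (edgeR adjusted p = 0.749).

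Groups of 3 that do not overlap reach p = 0.1 in an exact permutation test on FPKM (two-sided), the smallest value possible for 3 against 3. That value was reached by the 11 members that were apart and higher (Vim, Osmr, S1pr3, Cp, Serping1, Tm4sf1, Emp1, Ptgs2, Clcf1, Stat3 and Cebpd), against 14.1% of all genes tested, and by the 2 that were apart and lower (Amigo2 and Bcl3), against 8.80%. Within the groups the members did not follow 1 order of libraries. Cre-labelled library 1 was the highest of the 6 for 13 of the 33 members, against 24.2% of all genes tested, and the lowest for 6, against 15.8%, among them Lcn2, Srgn, Fbln5 and Steap4. Cre-labelled library 3 was the highest for 9, against 17.0% of all genes tested. Per library, the median of the 32 tested members relative to their GFP-labelled mean was 0.20, 0.21 and 0.31 log2 units in Cre-labelled libraries 1 to 3. It was 0.021, -0.00072 and -0.017 in GFP-labelled libraries 1 to 3, which lie near 0 by construction. In Cre-labelled libraries 1 to 3 the ependyma and tanycyte markers had medians of 0.69, 0.24 and 0.55, and the astrocyte identity markers 0.077, 0.061 and 0.077.

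**Figure D4:**
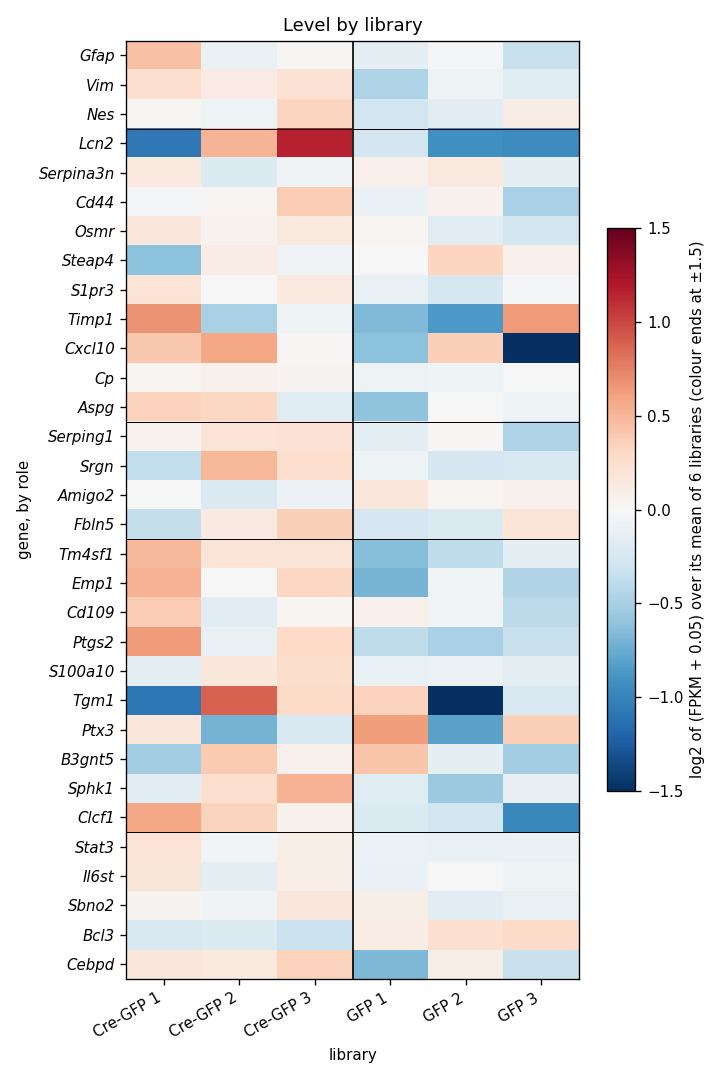
Level of the 32 tested members (rows, grouped by role between horizontal lines) in each library (columns, AAV2-Cre-GFP left of the vertical line and AAV2-GFP right of it); colour gives log2 of FPKM + 0.05 over the mean of the 6 libraries. Lcn2 is high in Cre-GFP 2 and 3 and low in Cre-GFP 1, whereas Gfap, Tm4sf1 and Clcf1 are highest in Cre-GFP 1.

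Upstream and downstream genes of the same pathways gave no call in edgeR. Of 7 tested gp130 ligands 5 were higher and 2 lower, led by Clcf1 and by Cntf, ciliary neurotrophic factor, which had 1.04, 1.77 and 1.62 FPKM in the Cre-labelled and 0.787, 0 and 0.597 FPKM in the GFP-labelled libraries (edgeR adjusted p = 0.437). Of 14 gp130 receptors, kinases and feedback genes 12 were higher and 2 lower with a median log2 difference of 0.14. The groups were apart and higher in the Cre-labelled libraries for 14.1% of all genes tested, and for 50.0% and 62.5% of the microglial and ependymal markers below. For this gp130 list the share was 57.1%, or 8 of the 14. Il6st, Osmr and Stat3 of this list and Clcf1 of the ligands are themselves members, and Osmr and Stat3 are among the 8. These lists are therefore not separate from the members. Lifr, the leukaemia inhibitory factor receptor, had 3.13, 3.09 and 3.14 FPKM against 2.58, 2.68 and 2.59 FPKM in the GFP-labelled libraries (log2 0.21 ± 0.063, SE; edgeR adjusted p = 0.161), and Il6ra, the interleukin-6 receptor, had 1.01, 1.04 and 1.09 against 0.863, 0.719 and 0.849 FPKM (edgeR adjusted p = 0.282). Socs3, the feedback inhibitor that STAT3 induces, had a log2 difference of 0.63 ± 0.280 (SE; edgeR adjusted p = 0.304). Socs3 is also counted among the further reactive genes below. Il6 itself had too few counts to be tested.

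Of 18 NF-kappaB genes 12 were higher and 6 lower, with a median log2 difference of 0.12 and the smallest p for Nfkb1, the p105 precursor, at 2.70 ± 0.127 and 2.10 ± 0.0999 FPKM (SD, n = 3 each; edgeR adjusted p = 0.105, DESeq2 adjusted p = 0.0122). Ikbkb, a kinase of the inhibitor of NF-kappaB, had the next smallest p, with a log2 difference of 0.17 ± 0.071 (SE; edgeR adjusted p = 0.268). Of 7 tested microglial signals that act on astrocytes 4 were higher and 3 lower, and C1qb and Il18 had the smallest p, with log2 differences of 0.22 ± 0.097 and 0.22 ± 0.134 (SE; edgeR adjusted p = 0.291 and 0.446); Tnf was not tested for want of counts. Of 18 further tested reactive genes 12 were higher and 6 lower. Anxa2, annexin A2, the partner of S100a10, had 6.07, 5.42 and 6.63 FPKM in the Cre-labelled and 3.82, 3.78 and 3.65 FPKM in the GFP-labelled libraries. These groups were well apart, with a log2 difference of 0.65 ± 0.097 (SE; edgeR adjusted p = 0.0705, DESeq2 adjusted p = 1.46e-05). Lgals3, galectin 3, known from phagocytes, had 1.72, 2.39 and 2.24 against 0.947, 1.61 and 1.04 FPKM (edgeR adjusted p = 0.217).

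Of 15 astrocyte identity markers 12 were higher and 3 lower, with a median log2 difference of 0.08. The groups were apart and higher for 7 of them (46.7%) and apart and lower for 1, against 14.1% and 8.80% of all genes tested. In edgeR 0 of the 15 passed. At an unadjusted p under 0.05 in edgeR 5 were higher and 1 lower, against 8.11% and 9.11% of all genes tested. In DESeq2 3 passed as higher and 1 as lower, against 3.66% of 16304 genes as higher and 9.06% in either direction. S100b, a calcium-binding protein of astrocytes, had the smallest p of the list, at 63.6 ± 1.78 FPKM in the Cre-labelled and 45.1 ± 3.73 FPKM in the GFP-labelled libraries (SD, n = 3 each; log2 0.46; edgeR adjusted p = 0.0705, DESeq2 adjusted p = 2.84e-06). The lowest edgeR adjusted p of any reactive member was 0.096. Slc1a2 was the marker that was apart and lower, at 96.7 ± 4.27 against 109 ± 5.9 FPKM (SD, n = 3 each). Its log2 difference was -0.21 (edgeR adjusted p = 0.157, DESeq2 adjusted p = 0.00793). Sox9 and Slc4a4 were also lower, with overlap (log2 -0.07 and -0.09). The markers were abundant, and their summed level was 8788 to 9020 CPM in the Cre-labelled and 8558 to 8762 CPM in the GFP-labelled libraries. The most abundant of the list, Glul, glutamine synthetase, and Ndrg2, had 331 ± 14.5 and 344 ± 11.2 FPKM in the Cre-labelled against 283 ± 16.9 and 316 ± 0.941 FPKM in the GFP-labelled libraries (SD, n = 3 each; edgeR adjusted p = 0.201 and 0.439, DESeq2 adjusted p = 0.0252 and 0.261). Markers of ependymal cells and tanycytes, which line the ventricle beside the PVH and also make vimentin, were higher in 8 of 8 cases with a median of 0.51. The groups were apart and higher for 5 of the 8 (62.5%), against 14.1% of all genes tested. These 8 markers summed to 211, 153 and 176 CPM in Cre-labelled libraries 1 to 3 and 118, 130 and 133 CPM in the GFP-labelled libraries. The most abundant of them, Tmem212 and Foxj1, had 20.2 ± 7.13 and 18.4 ± 2.10 FPKM against 11.6 ± 2.13 and 12.4 ± 1.36 FPKM in the GFP-labelled libraries (SD, n = 3 each; edgeR adjusted p = 0.186 and 0.0855, DESeq2 adjusted p = 0.0269 and 0.000306); the tanycyte factor Rax was at or under 0.109 FPKM in every library. Cre-labelled library 1, the highest in this sum, was also the highest for Gfap, Vim and Tm4sf1, and the part of ependymal RNA in these values was not tested.

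Markers of other cells differed in both directions. Microglial markers summed to 348 to 372 CPM in the Cre-labelled and 318 to 358 CPM in the GFP-labelled libraries, with 6 of 10 higher. The groups were apart and higher for 5 of these 10 (50.0%), against 14.1% of all genes tested. Fibroblast and meningeal markers summed to 158 to 206 CPM in the Cre-labelled and 166 to 177 CPM in the GFP-labelled libraries, and choroid plexus markers to 47.1 to 73.9 and 49.4 to 52.4 CPM. Of the PVH neuron markers 8 of 8 were lower, with a median of -0.67. Haemoglobin and other erythroid genes were higher in 5 of 5 cases, at 327, 262 and 346 CPM in the Cre-labelled and 199, 202 and 231 CPM in the GFP-labelled libraries. For 4 of these 5 (80.0%) the groups were apart and higher. Neurons as a whole were lower in 11 of 12 markers, with a median of -0.15. The part of these cells in the member values was not tested, beyond the fits that leave out libraries.

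**Figure D5:**
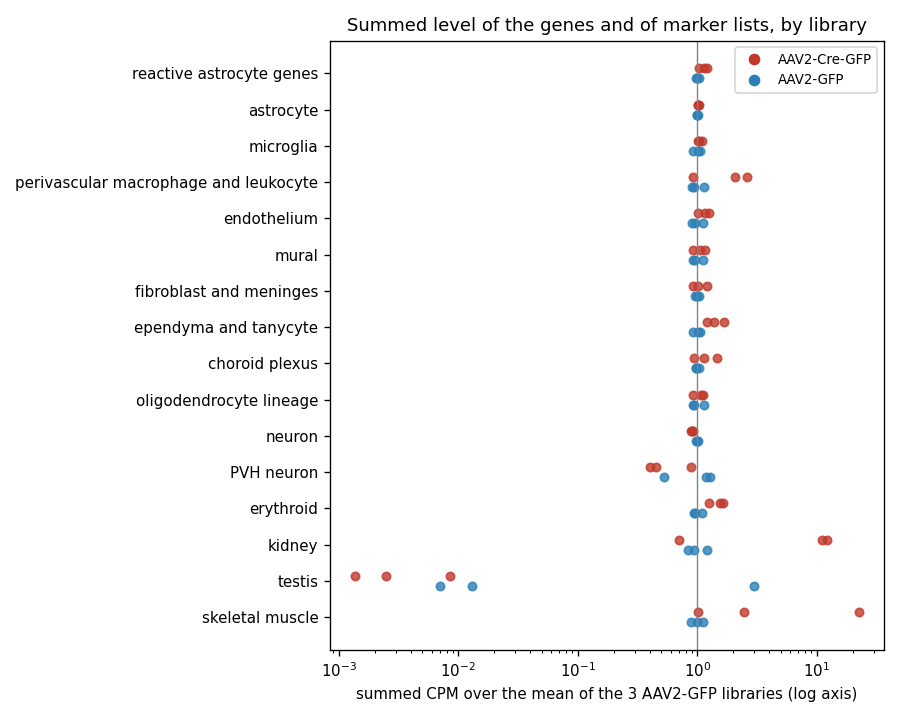
Summed CPM of the 33 reactive astrocyte genes and of 15 marker lists in each library, divided by the mean of the 3 AAV2-GFP libraries (x axis, log scale), with AAV2-Cre-GFP in red above AAV2-GFP in blue. The kidney list is raised in 2 AAV2-Cre-GFP libraries and the testis list in 1 AAV2-GFP library. The ependyma and tanycyte list is higher in all 3 AAV2-Cre-GFP libraries (153 to 211 CPM against 118 to 133 CPM). So are the erythroid list (262 to 346 against 199 to 231 CPM) and the astrocyte list (8788 to 9020 against 8558 to 8762 CPM). The neuron list is lower in all 3 (4760 to 4989 against 5281 to 5496 CPM).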

How the data were processed

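Poly(A)-selected, dUTP-marked libraries with molecular identifiers were sequenced as read pairs (labels' protocols). The tools named are cutadapt, HISAT2 and StringTie and the build mm9, per the submitters' processing notes; their versions, strand use in counting and removal of duplicates are not stated there. Of 35024 gene identifiers shared with GENCODE M21, 32009 (91.4%) have the positions of GRCm38, so coordinates are given as GRCm38. The deposited counts are whole numbers per gene without normalization, and the deposited FPKM values are scaled by length and library total by the authors. CPM values here are counts scaled with TMM factors.

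edgeR 4.0.16 (R 4.3.3) was fitted to all 6 libraries without covariates: TMM, filterByExpr with a minimum count of 10, quasi-likelihood test, two-sided, Benjamini-Hochberg over 20865 genes, threshold 0.05. The common biological coefficient of variation was 27.1%, so with 41890769 to 54702785 counts per library the spread between libraries limits precision for all but the lowest genes. SEs come from the F statistic. DESeq2 1.42.0 and limma 3.58.1 on log2(FPKM + 0.5) (mean FPKM over the libraries of 0.1 or more) served as alternatives. Every pair of libraries differed by more than sampling noise (chi-square per gene of at least 11.4). Members, lists and the rule for named genes (all members; from each pathway list the 2 with the smallest p; from marker lists the 2 with the highest FPKM, given only where a list bears on a member; Ruvbl2) were chosen with earlier results of these data known. Aldh1l1, Aqp4, Slc1a2, Slc1a3, Slc4a4, Sox9, S100b, Mrc1, Cd163, Cd3e, Rax, Socs3, Il6, Tnf, Syn1, Hps3, Art3, Veph1, Gm32834, Spidr, Gm49067, Gm16175, CT010467, Lars2, Rn7sk and mt-Rnr2 fall outside that rule and were named after their values were seen.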

Additional observations from a re-analysis of the deposited data

How the results depend on the processing

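The number of genes called among all tested depended on the test: 2 in the reported fit, 1477 in DESeq2, 9 with median-ratio factors, 1 with library totals only, 1 without a filter, 121 with a minimum count of 50, 22 in the robust fit, 3 in limma with each of 3 pseudocounts and 1 in limma without a filter, and 1 to 296 with 1 library left out, highest without Cre-labelled library 1. In fits added after the data were seen it was 4 without Cre-labelled libraries 2 and 3 and 1059 with GFP-labelled library 1 removed as well. The members past the threshold numbered 2 in DESeq2 (Vim and Tm4sf1) and 2 in the last of these fits (Gfap and Tm4sf1, 0.56 and 0.69), and 0 in the other alternatives. The members' median of 0.23 was 0.28 with library totals only, 0.17 and 0.15 in limma with pseudocounts of 0.5 and 1, 0.17 in limma without a filter, and 0.20 to 0.31 with 1 library left out; 21 of 23 were higher with a minimum count of 50 and 22 to 27 of 29 to 33 under the others. Of the 32 tested members 22 kept their sign under every alternative run.

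Signs turned as follows. With 1 library left out, Timp1 ran from -0.20 to 0.94, with -0.20, -0.018 and -0.061 as its negative values (without Cre-labelled library 1 or GFP-labelled library 1 or 2), B3gnt5 ran from -0.27 to 0.42, with -0.27, -0.0089 and -0.23 (without Cre-labelled library 2 or GFP-labelled library 2 or 3) and Fbln5 was at -0.036 (without Cre-labelled library 3). Without Cre-labelled libraries 2 and 3 Lcn2 was at -0.45, Serpina3n at 0.07, Srgn at -0.23, Fbln5 at -0.33, S100a10 at -0.06, Tgm1 at -1.16 and B3gnt5 at -0.77. With GFP-labelled library 1 left out too, Nes was at -0.019, Lcn2 at -0.21, Serpina3n at 0.08, Srgn at -0.19, Fbln5 at -0.42, S100a10 at -0.069, Tgm1 at -0.54, Ptx3 at 0.44 and B3gnt5 at -0.39. The lone Cre-labelled library in these fits is assumed to vary like the others, and the cause of the turns was not tested. Same-numbered libraries did not deviate together (correlations of -0.0435, 0.0121 and -0.0216 for numbers 1 to 3), so the numbers are not taken as pairs; the fit with the replicate block called 3 genes and no member, with a members' median of 0.25 and 27 higher. The depth limits the members with few counts, for which differences of the size seen in Vim were not detectable.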
